A study of Mus musculus with 12 samples.

Results

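The proton pump of the lysosome and the cathepsins were followed in joint tissue of arthritic mice. The vacuolar ATPase (V-ATPase) is a rotary pump. Its V1 sector, outside the membrane, splits ATP, and its V0 sector, in the membrane, carries protons into the lysosome. Cathepsins are the main proteases of that acid compartment, and most of them become active only at low pH. Macrophages degrade what they engulf with this machinery, and osteoclasts place the same pump in the membrane facing bone. Genes were taken by symbol, as every gene named Atp6v0, Atp6v1, Atp6ap1, Atp6ap2 or Cts plus a suffix, without pseudogenes, Atp6v0d2 and Ctsk. That rule uses no measured value, but the set was chosen with earlier results of these data known. The rule gave 47 genes of the 25655 in the table. Of these, 25 have the symbols of pump genes (14 V1, 8 V0 and 3 accessory) and 22 those of cathepsins.

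The RNA came from the synovial membrane and fat pad of the joint in SKG/Jcl mice, a strain whose Zap70 mutation makes it prone to autoimmune arthritis. Mice called Sedentary were given PBS. Those called Mannan-only were given 20 mg of mannan, a yeast sugar that sets off the arthritis, and those called AREx were given that dose and also exercised on a treadmill at low intensity. Each group had 4 poly(A) libraries. All 3 groups carry the Zap70 mutation, and age and sex were not stated in the labels. The labels do not say that each library came from its own animal, so p-values measure only the spread between libraries.

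Depth was 13459509 to 17248088 counts for a Sedentary library, 11803882 to 12918609 for a Mannan-only library and 12439229 to 17650156 for an AREx library. Levels are CPM, read counts scaled to library depth after TMM, with the SD over n = 4 libraries. Changes are log2 ratios with their standard error (SE), from edgeR's quasi-likelihood test, and "rose" or "fell" means a Benjamini-Hochberg adjusted p under 0.05 over all 14278 genes tested. The libraries differed in cell type markers. The summed level of 12 macrophage markers was 1621 to 2817 CPM in Sedentary, 7461 to 9087 CPM in Mannan-only and 8034 to 11413 CPM in AREx. Lyz2 had the most reads of this list in every library, such as 18248 in Sedentary 1 and 67039 in Mannan-only 1, so the sum leans on that gene. The sum of 8 adipocyte markers was 12834 to 22447, 872 to 1774 and 1075 to 3007 CPM in Sedentary, Mannan-only and AREx. Skeletal muscle markers summed to 2320 CPM in AREx 2 and 2577 CPM in AREx 4, against at most 248 CPM elsewhere. The Sedentary libraries also differed among themselves. Synovial fibroblast markers summed to 22602 CPM in Sedentary 2, against 4661, 6467 and 3989 CPM in Sedentary 1, 3 and 4. In Mannan-only that sum was 19900 to 22656 CPM and in AREx 16690 to 25813 CPM. In bulk tissue, more cells of a type and more RNA per cell cannot be told apart.

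Of the 47 genes, 32 reached 1 CPM in at least 4 libraries, 19 of the pump and 13 cathepsins. No read was found for 10 genes. They include Atp6v1b1, the B subunit of acid-secreting kidney cells, and Atp6v1fnb, which lies beside Atp6v1f and was counted as V1 by its symbol alone. The others are Ctsj, Ctsq, Ctsr, Cts3, Cts6, Cts7, Cts8 and Ctsm, which belong to the cathepsin family of the rodent placenta. These 8 cathepsin genes and Ctsll3 lie side by side on chromosome 13, from 60946064 to 61717941 (GRCm39), on the chromosome that also holds Ctsl at 64507151 to 64518704. Atp6v1e2, Atp6v1g3 and Ctsll3 had 1 read each and Atp6ap1l had 2 reads over all 12 libraries. The neutrophil protease gene Ctsg was just inside the rule, at 1 CPM in 5 libraries. Atp6v1c2 was just outside, at 1 CPM in 3 libraries, but passed the filter of the test, so 33 genes were tested.

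Many genes of this machinery are known targets of the transcription factor TFEB and its relatives, which bind a palindrome with the core CACGTG. The promoters that hold the full palindrome TCACGTGA are shown because they mark which pump and cathepsin genes carry it close to their start. RefSeq windows of 300 bases around the start, on GRCm38.p6, were at hand for 37 of the 47 genes. The genes Atp6v1b2, Atp6v1h, Ctsb and 7 others had none. Capitals mark TCACGTGA, and 60 bases are shown for each gene.
Ctsa, chr2:164833734-164833793, + strand: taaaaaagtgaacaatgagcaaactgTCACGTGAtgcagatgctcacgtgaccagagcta
Ctsd, chr7:142387893-142387952, - strand: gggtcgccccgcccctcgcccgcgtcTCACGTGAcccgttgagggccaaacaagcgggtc
Atp6v0d1, chr8:105566035-105566094, - strand: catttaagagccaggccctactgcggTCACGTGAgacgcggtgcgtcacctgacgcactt
Atp6v1a, chr16:44139358-44139417, - strand: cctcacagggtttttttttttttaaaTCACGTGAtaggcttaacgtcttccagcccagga
Atp6v0e, chr17:26676372-26676431, + strand: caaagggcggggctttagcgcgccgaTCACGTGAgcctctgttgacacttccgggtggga
TCACGTGA reads the same on both strands and always contains CACGTG. It stood in 5 of 41 windows of the 37 genes (12.2%), beside 320 of all 32851 windows (0.974%). The Ctsa window held it at 2 places, of which the first is in capitals. CACGTG alone stood in 9 of the 41 windows (22.0%), beside 7.15% of all windows, and the other 4 genes were Atp6v0b, Ctsl, Ctsf and Ctsll3. A match describes letters and is not a measured binding site.

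More genes of the set were higher than lower after mannan, and the median change of the cathepsins was larger than that of the pump genes. In Mannan-only against Sedentary, 18 of the 33 genes tested rose and 4 fell, beside 26.3% of all genes higher and 25.2% lower. The other 11 did not pass. In the authors' deposited table, 14 of the 33 were higher and 4 lower at an adjusted p under 0.05, beside 20.8% and 20.3% of all genes. The rises of Ctsl (0.0621), Atp6ap2 (0.0671), Atp6ap1 (0.0994) and Atp6v1c1 (0.177) missed that threshold there, with the adjusted p of the authors' deposited table in brackets. Cathepsins gave 10 of the 18 rises and 1 fall among 13 tested, with a median log2 fold change of 1.35. Pump genes gave 8 rises and 3 falls among 20 tested, with a median of 0.22. The median was 0.41 over the 33 genes and 0.01 over all genes tested. The groups did not overlap in 25 of the 33 genes, beside 63.8% of all genes.

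**Figure D1:**
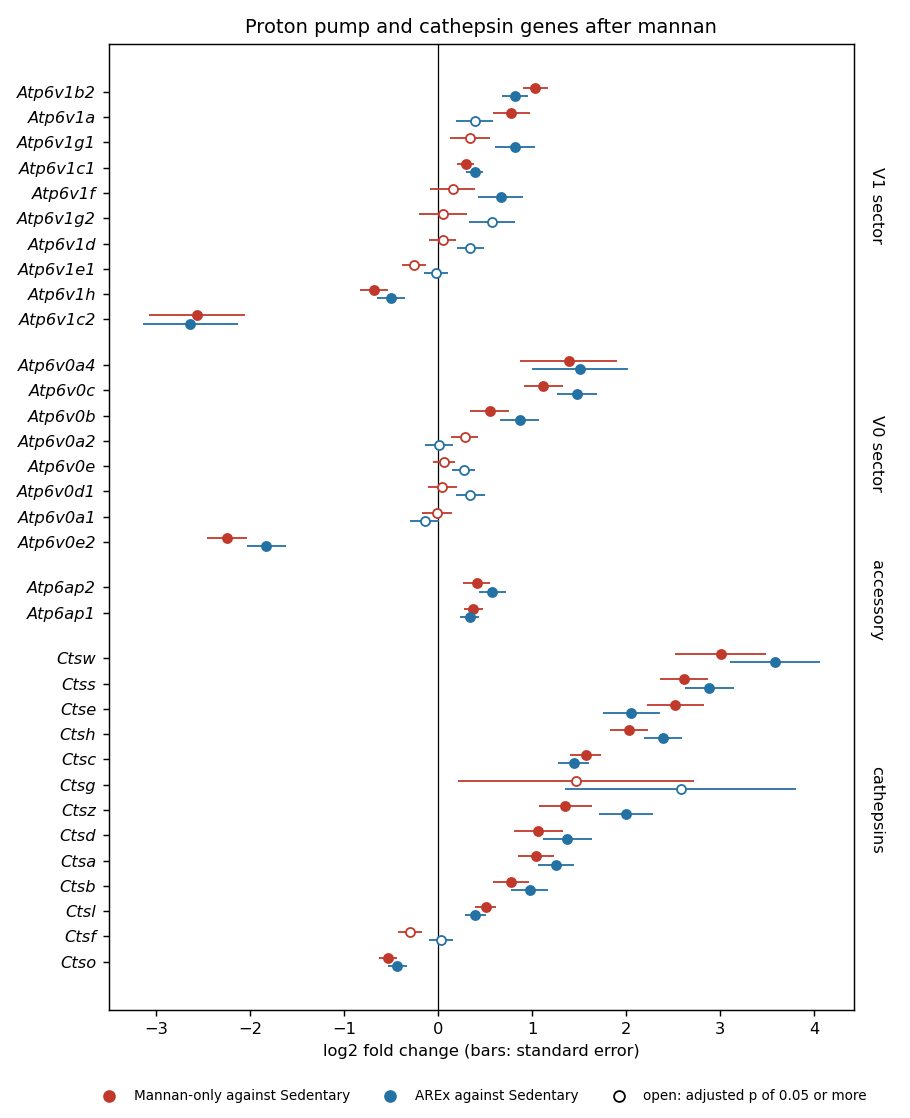
Log2 fold change (x axis) of the 33 genes tested, by sector, in Mannan-only against Sedentary (red) and AREx against Sedentary (blue). Bars are the SE and open points have an adjusted p of 0.05 or more. Atp6v1c2 and Atp6v0e2 lie furthest to the left and Ctsw and Ctss furthest to the right.

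In the V1 sector, 3 of 10 tested genes rose, 2 fell and 5 did not pass, with a median of 0.10. Over all genes 26.3% were higher and 25.2% lower, so the V1 counts are near those shares. Both genes of the catalytic ring rose. Atp6v1a, the A subunit that splits ATP, was at 116, 113, 109 and 121 CPM in Sedentary and at 185, 198, 189 and 214 CPM in Mannan-only. The groups did not overlap, and Atp6v1a rose by 0.78 (SE 0.20, adjusted p = 0.00523). Atp6v1b2, the nucleotide-binding B subunit that alternates with A in the same ring, was at 109, 94.0, 104 and 105 CPM in Sedentary and at 206, 223, 187 and 228 CPM in Mannan-only. Its log2 change was 1.03 (SE 0.14, adjusted p = 4.44e-05), with no overlap. The stator subunit gene Atp6v1c1 rose from 50.9 ± 2.39 to 62.3 ± 3.64 CPM, a log2 change of 0.29 (adjusted p = 0.0153). That call was lost without Sedentary 2, without Mannan-only 4 or under upper-quartile scaling (highest adjusted p = 0.0573).

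The gene of the regulatory subunit H fell. Subunit H holds back ATP splitting in a V1 sector that has come off the membrane and is needed for a working pump. Atp6v1h was at 84.1, 75.0, 81.4 and 107 CPM in Sedentary and at 53.0, 53.0, 53.2 and 57.3 CPM in Mannan-only. Every Mannan-only library was below every Sedentary library, and the gene fell by 0.68 on the log2 scale (SE 0.15, adjusted p = 0.00193). Atp6v1c2, a second C subunit known from lung and kidney, fell by 2.56 (SE 0.51, adjusted p = 0.00109) from a low level, 1.59 ± 0.986 to 0.261 ± 0.0506 CPM. Its gene shares 50 bases with Pdia6, which had 42329 reads against 116, and use of strand is not given, so that low level is uncertain. The gene reached 1 CPM in 3 libraries, all Sedentary, and passed the filter of the test through that group, so its fall is a description and lends the count of falls no support.

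The remaining V1 genes did not pass. The rotor stalk genes Atp6v1d and Atp6v1f had log2 changes of 0.05 and 0.16. The stator stalk genes Atp6v1e1, Atp6v1g1 and Atp6v1g2 had -0.25, 0.34 and 0.05. Levels of Atp6v1e1 were 95.4 to 114 CPM in Sedentary and 76.5 to 90.1 CPM in Mannan-only, without overlap but with an adjusted p of 0.12. Atp6v1g1 was at 80.5 to 100 CPM and at 108 to 121 CPM, also without overlap (adjusted p = 0.200). It was called with only the 2 groups compared (adjusted p = 0.00331), without AREx 1 (0.0291) or without AREx 1 and 4 (0.00189). With the gene-length trend removed Atp6v1g1 was called too (adjusted p = 6.43e-05), as was Atp6v1f (adjusted p = 0.00282). Atp6v1g2 lies across 2133 bases of Nfkbil1 on the other strand, so its low count is uncertain.

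**Figure D2:**
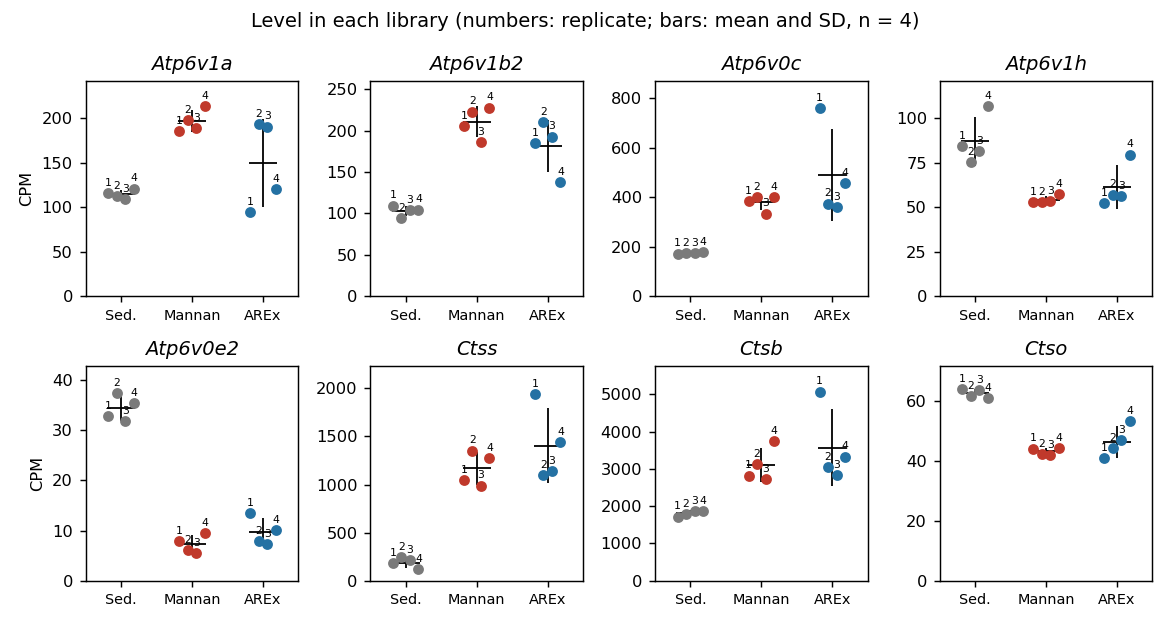
Level in CPM (y axis, from 0) of 8 genes in each library of the 3 groups, with replicate numbers beside the points and the mean and SD (n = 4). Atp6v1h, Atp6v0e2 and Ctso are lower in Mannan-only than in Sedentary and the other 5 higher, and AREx 1 lies apart for Atp6v0c, Ctss and Ctsb.

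In the V0 sector, 3 of 8 genes rose, 1 fell and 4 did not pass, with a median of 0.17. These few genes stand beside 26.3% of all genes higher and 25.2% lower. Atp6v0c encodes the main proteolipid of the ring that carries protons. It was at 172, 175, 175 and 179 CPM in Sedentary and at 385, 402, 334 and 402 CPM in Mannan-only, far apart. The log2 change was 1.12 (SE 0.21, adjusted p = 7.05e-04). Mouse Atp6v0c has pseudogene copies, and how reads fitting several places were counted is not given. Atp6v0b, the c″ proteolipid of the same ring, rose from 74.1 ± 9.33 to 109 ± 6.44 CPM (log2 change 0.55, adjusted p = 0.0406). This call was lost without any 1 of 7 libraries, Sedentary 1, 2 or 3 or any Mannan-only library (highest adjusted p = 0.0984), and under upper-quartile scaling.

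The only V0 gene to fall was Atp6v0e2, which encodes 1 form of the small e subunit. It was at 32.9, 37.4, 31.8 and 35.5 CPM in Sedentary and at 7.89, 6.05, 5.55 and 9.49 CPM in Mannan-only. The Mannan-only libraries were all far below, and the gene fell by 2.25 (SE 0.21, adjusted p = 4.24e-06). Its paralog Atp6v0e was at 93.9 ± 4.99 and 98.1 ± 3.70 CPM, a log2 change of 0.06 that did not pass (adjusted p = 0.687). Atp6v0d1, the common d subunit that couples ring and rotor, had 0.05 (adjusted p = 0.828).

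The a subunit forms the path for protons and directs the pump to its membrane. Atp6v0a1 had a log2 change of -0.01 (adjusted p = 0.969) and Atp6v0a2, the Golgi form, 0.28 (adjusted p = 0.131). Atp6v0a4, the form of acid-secreting kidney cells, rose by 1.39 (SE 0.52, adjusted p = 0.0386), but its level was only 0.468 to 2.0 CPM in Sedentary and 1.64 to 4.14 CPM in Mannan-only. These ranges overlap. The call was lost without Sedentary 1, 2 or 4 or Mannan-only 1, 3 or 4 (highest adjusted p = 0.12). Atp6v0a4 shares 1413 bases on the same strand with D630045J12Rik, which had 1247 reads against 366. The gene reached 1 CPM in 9 libraries, in Sedentary only in replicates 2 and 3, and entered the described set through the mannan libraries. Its rise here and in AREx against Sedentary (log2 change 1.51) is thus a description and lends the counts of rises no support.

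Both accessory genes rose slightly. Atp6ap1 encodes Ac45, which helps assemble the V0 sector, and rose from 174 ± 11.3 to 226 ± 6.44 CPM (log2 change 0.38, adjusted p = 0.00595). Atp6ap2, the prorenin receptor, rose from 92.1 ± 13.0 to 122 ± 4.29 CPM (log2 change 0.41, adjusted p = 0.0331). Without Sedentary 1 or 4, or without any 1 Mannan-only library, Atp6ap2 was no longer called (highest adjusted p = 0.0978). With the replicate number as a block or under upper-quartile scaling it was not called either.

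Among the cysteine cathepsins, Ctss had the highest fold change of those above 10 CPM. Cathepsin S trims the invariant chain of MHC class II in antigen-presenting cells. Its gene was at 182, 246, 213 and 119 CPM in Sedentary and at 1050, 1353, 989 and 1277 CPM in Mannan-only. The lowest Mannan-only library was above the highest Sedentary library, and Ctss rose by 2.62 (SE 0.26, adjusted p = 5.15e-06). Ctsh, an aminopeptidase, was at 48.5, 59.4, 53.2 and 48.8 CPM and then at 225, 233, 165 and 235 CPM. Its rise of 2.03 (SE 0.20, adjusted p = 5.77e-06) was also free of overlap. Ctsc, which activates the granule proteases of neutrophils and cytotoxic cells, rose from 173 ± 34.6 to 515 ± 63.2 CPM (log2 change 1.57, SE 0.17, adjusted p = 8.49e-06).

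Ctsz, a carboxypeptidase also called cathepsin X, rose from 142 ± 6.19 to 363 ± 29.4 CPM (log2 change 1.35, SE 0.28, adjusted p = 0.00156). The general protease gene Ctsb was the most abundant of the 47 in counts. It was at 1722, 1797, 1863 and 1875 CPM in Sedentary and at 2821, 3133, 2727 and 3752 CPM in Mannan-only, a rise of 0.78 (SE 0.19, adjusted p = 0.00501). The endopeptidase gene Ctsl was at 593 ± 17.0 and then 842 ± 63.0 CPM, a rise of 0.51 (SE 0.11, adjusted p = 0.00193). Ctsb and Ctsl, both abundant in Sedentary, thus had smaller log2 changes than Ctss, Ctsh and Ctsc.

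Ctso was the cathepsin gene that fell. It was at 64.2, 61.8, 63.6 and 61.1 CPM in Sedentary and at 44.2, 42.4, 42.0 and 44.4 CPM in Mannan-only. Both groups were tight and apart, and the gene fell by 0.54 (SE 0.10, adjusted p = 5.31e-04). Ctsf was at 56.4 to 65.2 CPM and at 43.8 to 54.6 CPM, which did not overlap, but its log2 change of -0.30 did not pass (adjusted p = 0.0752). Ctsf was called with only the 2 groups compared (adjusted p = 0.0113) and without AREx 1 and 4 (adjusted p = 0.00679). Under upper-quartile scaling it was called as well (-0.36, adjusted p = 0.0439).

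The aspartic and serine members also rose, apart from Ctsg. Ctsd, the major aspartic protease of the lysosome, rose from 708 ± 109 to 1481 ± 290 CPM (log2 change 1.06, adjusted p = 0.00435). Ctse, an aspartic protease of immune cells and gut, was at 6.30 to 8.11 CPM in Sedentary and at 30.4 to 54.8 CPM in Mannan-only (log2 change 2.52, SE 0.30, adjusted p = 2.35e-05). Ctsa, a carboxypeptidase that protects lysosomal neuraminidase and galactosidase, rose from 200 ± 18.0 to 411 ± 50.9 CPM (log2 change 1.04, adjusted p = 6.11e-04). Ctsa overlaps Pltp by 1515 bases on the opposite strand, and Pltp had 72763 reads against 58683, so reads of the pair may be mixed. In all, 11 of the 33 genes tested overlap another gene of the table.

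The cathepsins with the lowest levels, Ctsw and Ctsg, are known from blood cells. Ctsw, a cathepsin of cytotoxic lymphocytes, was at 0.145 to 0.935 CPM in Sedentary and at 3.57, 4.50, 3.83 and 4.03 CPM in Mannan-only (log2 change 3.01, SE 0.48, adjusted p = 2.16e-04). The gene reached 1 CPM in 8 libraries, those of Mannan-only and AREx, and entered the described set through them, so its rise is a description and lends the count of rises no support. The 11 T and NK cell markers summed to 7.03 to 15.3 CPM and 73.0 to 106 CPM in the same groups, and 1 of them was at 0 in each. Their part in the Ctsw result was not tested. Ctsg was at 0.507 to 0.867 CPM in Sedentary and at 1.59, 0.0818, 4.38 and 1.01 CPM in Mannan-only, on both sides of Sedentary (log2 change 1.47, SE 1.26, adjusted p = 0.351). The Mannan-only library with the most Ctsg, Mannan-only 3, had the fewest neutrophil marker reads of its group, 2979 CPM beside 4641 to 6114 CPM over 11 markers. The same library had the most Elane and Mpo of its group, granule genes of immature neutrophils, at 10.01 and 34.3 CPM. AREx 3, with the most Ctsg of all at 13.7 CPM, had 22.2 CPM of Elane and 89.5 CPM of Mpo, the highest of the 12 libraries. Their part in the Ctsg values was not tested.

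Marker lists of several cell types differed between the same groups. Macrophage markers rose in 10 of 12 and osteoclast markers in all 8 tested of 10, while 8 of 8 adipocyte and 7 of 7 mast cell markers fell. Neutrophil markers rose in 8 of 11 and T and NK cell markers in all 10 tested of 11. Dendritic cell markers (3 up and 1 down of 7) and synovial fibroblast markers (2 up and 1 down of 8) were mixed. No B cell or skeletal muscle marker passed. Neutrophil markers summed to 21.4 to 118 CPM in Sedentary and to 2979 to 6114 CPM in Mannan-only. Among all genes tested, 26.3% were higher and 25.2% lower. Osteoclast markers summed to 385 to 503 CPM in Sedentary, where 2 of them were at 0, and to 1141 to 1499 CPM in Mannan-only. That list holds 3 genes next to the set, Tcirg1, Atp6v0d2 and Ctsk. The part of these cells in the results was not tested.

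Per gene length, the order of the leading members changed. Length-scaled levels are the deposited TPM, which are not on the TMM scale of the CPM values. In Sedentary, Ctsb led with 888 ± 51.0 TPM, followed by Ctsd at 772 ± 120 TPM and Ctss at 329 ± 108 TPM. The first 2 ranges overlapped, and Ctss lay below both. In Mannan-only, Ctss led with 2305 ± 323 TPM, before Ctsd at 1866 ± 341 TPM and Ctsb at 1758 ± 248 TPM, and Ctsd and Ctsb lay within each other's spread. The highest pump gene was Atp6v0c in both groups, at 298 ± 14.5 and 747 ± 48.0 TPM.

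Summed over the 22 genes, cathepsin TPM was 2829 ± 268 in Sedentary and 8013 ± 971 in Mannan-only. Summed over the 25 pump genes, TPM was 1770 ± 42.6 and 2748 ± 93.9. These sums cannot be set beside the log2 changes, because TPM and CPM differ in scale between groups. Atp6v0d1, for example, was at 107 ± 10.6 and 110 ± 6.68 CPM but at 151 ± 7.25 and 181 ± 7.49 TPM in the same groups. By raw counts, the 47 genes took 0.534% to 0.565% of a Sedentary library and 0.938% to 1.18% of a Mannan-only library. Within the cathepsins the share of Ctss was 11.5% ± 3.01 in Sedentary and 28.7% ± 1.75 in Mannan-only. The share of Ctsb was 31.5% ± 1.47 and then 21.9% ± 1.18, although its own level rose. Ctsl went from 7.71% ± 0.470 to 4.49% ± 0.428.

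**Figure D3:**
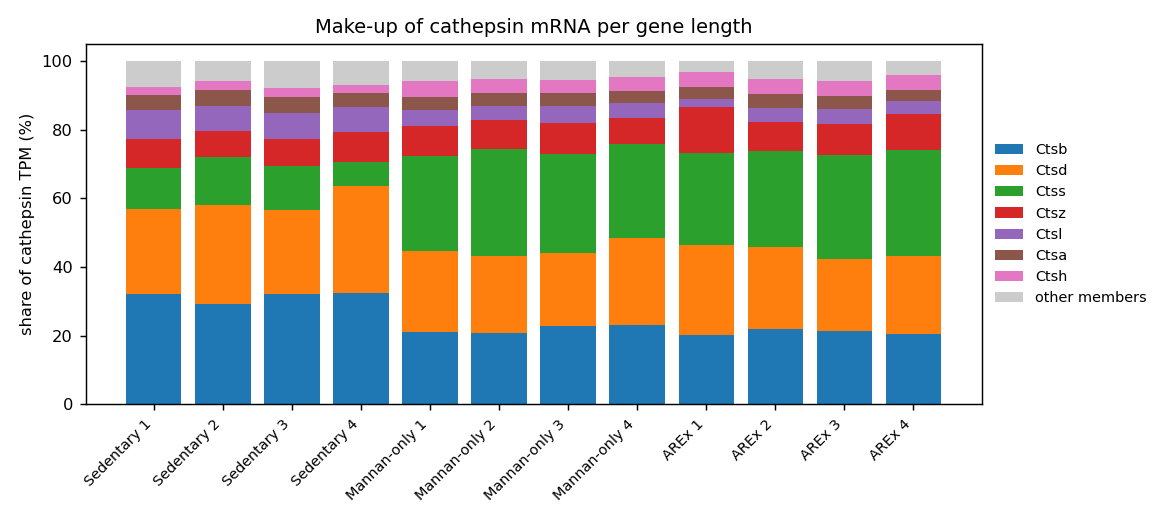
Share of summed cathepsin TPM (y axis, %) in each of the 12 libraries for the 7 cathepsin genes with the highest mean share and all others together, without Ctsk. Ctss takes 7.15% to 14.0% in Sedentary and 26.9% to 31.2% in the other libraries.

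The pump is built with 1 of several paralogs at some positions, and the make-up of these positions differed between groups. Tcirg1 encodes a3, the a subunit of osteoclasts and phagocytes. It falls outside the set by its name, as does Atp6v0d2, the d subunit of osteoclasts and macrophages, by the rule. Of the TPM of the 4 a subunit genes, Tcirg1 gave 31.5% ± 2.53 in Sedentary and 62.9% ± 2.78 in Mannan-only, and the ranges were far apart. Atp6v0a1 gave 45.3% ± 3.32 and then 22.6% ± 1.39. The level of Tcirg1 rose by 2.0 on the log2 scale (adjusted p = 9.22e-06). Atp6v0a4 gave at most 1.53% in any library.

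Atp6v0d2 gave 1.43% ± 0.218 of d subunit TPM in Sedentary and 19.8% ± 3.12 in Mannan-only, with a log2 change of its level of 4.15 (adjusted p = 7.09e-08). Atp6v0d1 remained the main form in every library. At the e position the share of Atp6v0e2 was 43.2% ± 2.08 in Sedentary and 13.3% ± 3.14 in Mannan-only. At the other positions 1 paralog held most of the TPM. Atp6v1c1 gave at least 94.4% of C subunit TPM, with its lowest share in Sedentary 4. Atp6v1b2 gave 100% of B subunit TPM, Atp6v1e1 at least 99.9% of E and Atp6v1g1 at least 98.3% of G in each library. Ctsk, the collagen-cutting cathepsin of osteoclasts that the rule leaves out, had a log2 change of 1.71 (adjusted p = 1.20e-04).

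**Figure D4:**
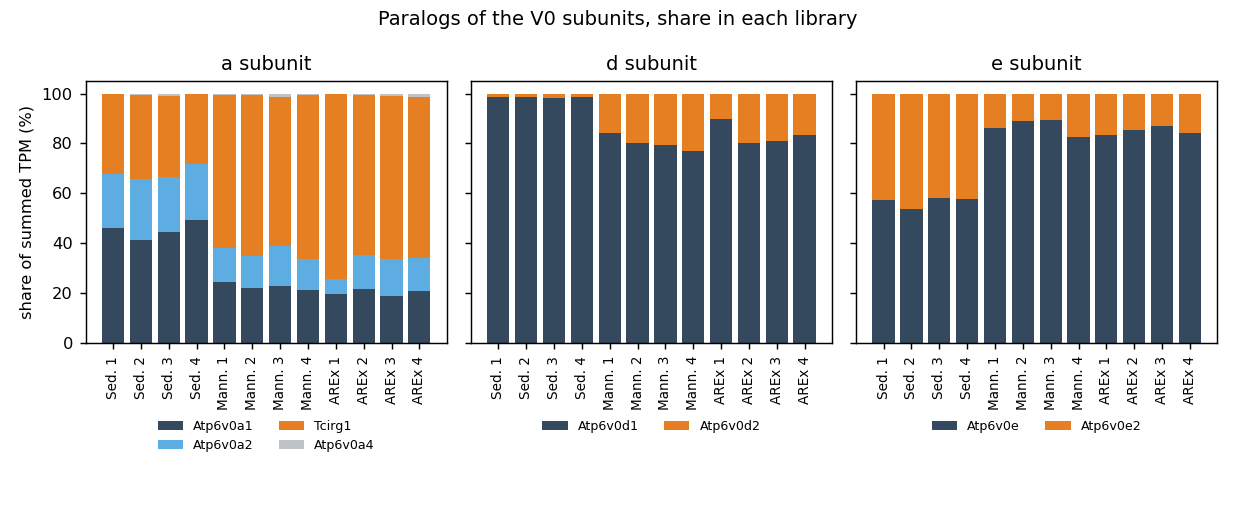
Share of summed TPM (y axis, %) of the paralogs at the a, d and e positions of the V0 sector in each of the 12 libraries. The shares of Tcirg1 and Atp6v0d2 are higher, and that of Atp6v0e2 lower, in every Mannan-only and AREx library than in every Sedentary library.

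Other genes of the lysosome are given for the setting, from lists chosen with earlier results of these data known. Their counts stand beside 26.3% of all genes higher and 25.2% lower in the same comparison. In Mannan-only against Sedentary, 17 of 22 glycosidase and sulfatase genes rose and 1 fell, with a median of 0.65. The largest named rises were those of the galactosidase gene Gla (1.52) and the sulfatase gene Galns (1.46), and Ids fell by 0.66. Of 6 other lysosomal proteases all rose, led by Napsa, an aspartic protease close to cathepsin D (2.43), and Lgmn, which matures cathepsins (1.33). Of 18 membrane protein genes 9 rose and 1 fell, with Cd68 at 1.72, Laptm5 at 1.65 and the channel genes Tpcn2 at 1.34 and Tpcn1 at -0.75.

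Of 12 lipase, phosphatase and nuclease genes 5 rose and 1 fell, among them Lipa (0.91) and Psap (1.03) upward and Smpd1 (-0.65) downward. The cystatins are inhibitors of cysteine cathepsins. Of 3 tested, Cstb (1.29) and Cst7 (0.83) rose and Cst3 fell by 0.64. Of 10 factors that assemble or take apart the pump, 3 rose and 2 fell, near the 26.3% and 25.2% of all genes. Dmxl2 of the assembly complex was at 1.80, Oxr1 at -0.85 and Vma21 at -0.43. Of 9 genes for mannose 6-phosphate sorting, the route of cathepsins into the lysosome, 4 rose and 2 fell, with the mannose 6-phosphate receptor gene M6pr at 0.60 and Sort1, another sorting receptor, at -2.53.

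The MiT/TFE factors and their regulators had a median of 0.00, with 4 of 20 up and 2 down. Both counts are below the shares of all genes, 26.3% higher and 25.2% lower. Tfec rose by 2.09, Fnip2 by 1.35 and Tfe3 by 0.56, while Tfeb (0.36, adjusted p = 0.13) and Mitf (0.31, adjusted p = 0.0791) did not pass. Rragb (-1.49, adjusted p = 0.0116) and Rragc (-0.50, adjusted p = 0.00115) fell. Among the genes with a promoter window, 3 of the 12 that rose held TCACGTGA, none of the 3 that fell and 2 of the 9 that did not pass. Of the 5 genes whose promoters are printed above, Ctsa, Ctsd and Atp6v1a rose, and Atp6v0d1 and Atp6v0e did not pass.

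AREx against Sedentary shares its Sedentary libraries with the first comparison, so the values are set side by side. Of the 33 genes tested 19 rose and 4 fell, beside 27% of all genes higher and 23.7% lower, with a median of 0.58 over the 33 and 0.05 over all genes. The authors' deposited table had 17 higher and 4 lower, beside 22.1% and 19% of all genes. In the authors' deposited table Ctsl (adjusted p = 0.162), Atp6ap1 (0.154) and Atp6v1c1 (0.0669) missed the threshold, while Ctsg (log2 change 2.60, adjusted p = 0.00784) passed it. Ctsg had 1, 20, 190 and 5 reads in AREx 1 to 4 and 15, 7, 7 and 8 reads in Sedentary 1 to 4. It reached 1 CPM in 5 libraries, all given mannan, so its call lends the deposited count of 17 no support. Among the 13 cathepsins 10 rose and 1 fell (median 1.44), and among the 20 pump genes 9 rose and 3 fell (median 0.37). Ctss was at 1940, 1102, 1139 and 1442 CPM in AREx and rose by 2.89 (SE 0.26, adjusted p = 3.27e-06). Ctsh rose by 2.39, Ctsz by 2.0, Ctsd by 1.37 and Ctsb by 0.98. Atp6v0c was at 762, 375, 362 and 457 CPM and rose by 1.48 (SE 0.21, adjusted p = 9.69e-05), with AREx 1 far above the other 3.

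The 4 genes that fell were Atp6v0e2, Atp6v1h, Ctso and Atp6v1c2. Atp6v0e2 was at 13.4, 7.98, 7.29 and 10.2 CPM in AREx and fell by 1.83 (adjusted p = 1.78e-05). Atp6v1h was at 52.3, 57.0, 56.1 and 79.4 CPM and fell by 0.50 (SE 0.15, adjusted p = 0.0125). Its groups overlapped, since AREx 4 lay above Sedentary 2. Ctso fell by 0.43 (adjusted p = 0.00245) and Atp6v1c2 by 2.64 (adjusted p = 8.55e-04).

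For 3 V1 genes the call against Sedentary was made for 1 mannan group and not for the other, which is no test of a difference. Atp6v1a was at 94.7, 193, 190 and 120 CPM in AREx, so that AREx 2 and 3 lay among the Mannan-only libraries and AREx 1 below every Sedentary library. Its log2 change of 0.39 did not pass (SE 0.20, adjusted p = 0.118). Without AREx 1 the Atp6v1a change was 0.56 (adjusted p = 0.00739), and without AREx 1 and 4 it was 0.75 (adjusted p = 2.08e-05). Atp6v1f, at 146, 58.2, 63.0 and 92.2 CPM, rose by 0.66 (adjusted p = 0.0337) with AREx 1 and 4 on top. Without both of these libraries the Atp6v1f change was 0.10 and not called, and it was also lost without AREx 1, without AREx 4 or without any 1 Sedentary library. Neither limma-voom (adjusted p = 0.0576) nor the fit of only the 2 groups compared (adjusted p = 0.0792) called Atp6v1f. Atp6v1g1, at 247, 116, 112 and 161 CPM, rose by 0.82 (adjusted p = 0.00673), which was 0.34 and still called without AREx 1 and 4. In that same fit Atp6v1g1 was also called in Mannan-only against Sedentary (0.34, adjusted p = 0.00189).

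AREx against Mannan-only compares mannan with and without the treadmill. With edgeR's quasi-likelihood test, 0 of the 33 genes rose or fell, beside 0.007% of all genes higher and 0% lower. At an unadjusted p under 0.05 there were 3 of 33, beside 19.9% of all genes. DESeq2's Wald test and limma-voom also called 0 of the 33, and in the authors' deposited table none of the 33 had an adjusted p under 0.05, beside 2.14% of all genes higher and 0.523% lower. The 3 genes were Ctsf at 0.33 (SE 0.13, adjusted p = 0.233), Ctsz at 0.64 (SE 0.28, adjusted p = 0.244) and Atp6v1g1 at 0.48 (SE 0.21, adjusted p = 0.246). The log2 change was above 0 in 24 of the 33, beside 49.5% of all genes, with a median of 0.22 against -0.01 over all genes. A p that misses the threshold does not show that the groups are alike.

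Values within AREx differed by library and by gene length. Gene lengths were derived from the deposited counts and RPKM values. Ctsz, with a gene length of 1441 bases, was at 1025, 361, 365 and 516 CPM in AREx. Its levels in AREx 2 and 3 lay within the Mannan-only range of 324 to 395 CPM. In AREx 1, the 9 shortest of the 28 members above 10 CPM (at most 1767 bases) were at a median of 0.96 as log2 ratios to the mean of the Mannan-only libraries, and the 9 longest (at least 3667 bases) had 0.30. In AREx 4 these medians were 0.31 and -0.08. In AREx 2 they were -0.02 and -0.03, and in AREx 3 they were -0.00 and -0.05.

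Over the same 28 members, Spearman's rho of that ratio with gene length was -0.72 in AREx 1, -0.62 in AREx 4, -0.23 in AREx 2 and -0.17 in AREx 3. The points of a library share its depth and scaling, so these are descriptions. Atp6v1a (4492 bases) and Ctsz stood at opposite ends in AREx 1. Without AREx 1 and 4 the median of the members was -0.01 in AREx against Mannan-only and 0.37 in AREx against Sedentary, and Ctsz in the former was at -0.0013 with the unadjusted call gone. AREx 4 also had the lowest summed neutrophil markers of the group, 1234 CPM beside 2922 to 7118 CPM in AREx 1, 2 and 3. Their part in the members' values was not tested.

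**Figure D5:**
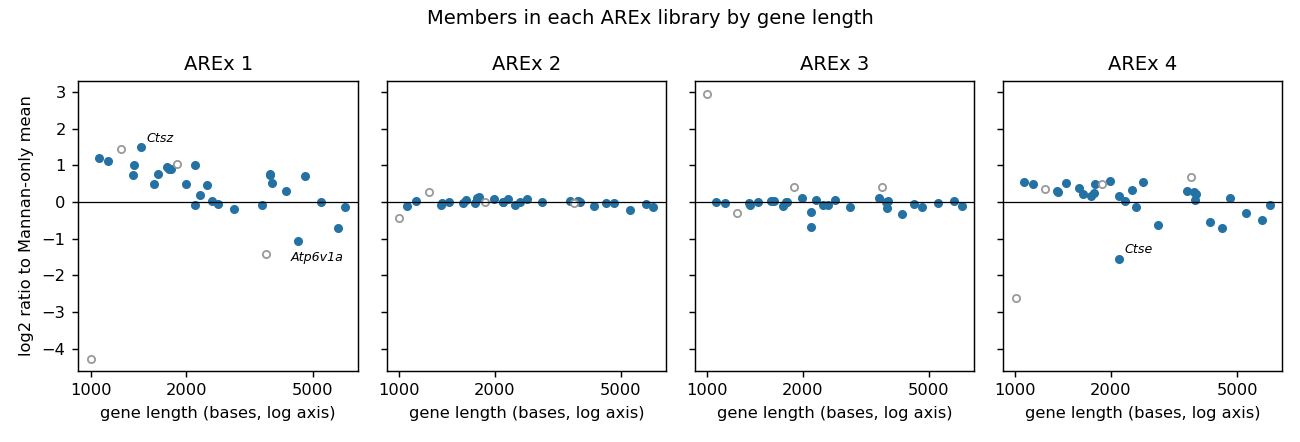
Log2 ratio of each of the 32 described members to its Mannan-only mean (y axis) against gene length in bases (x axis, log scale) in the 4 AREx libraries. Open points are the 4 members with a mean under 10 CPM (Atp6v0a4, Ctsg, Atp6v1g2 and Ctsw). Points slope downward in AREx 1 and AREx 4 and lie near 0 in AREx 2 and AREx 3.

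In AREx, sums and shares of TPM were as follows, with no test and not on the TMM scale. Summed cathepsin TPM was 8050 ± 697 in AREx and summed pump TPM was 2710 ± 140. Tcirg1 gave 66.9% ± 4.83 of a subunit TPM, Atp6v0d2 gave 16.4% ± 4.30 of d and Atp6v0e2 gave 14.9% ± 1.50 of e. Ctss gave 29.0% ± 1.94 of cathepsin TPM, and every AREx library lay above every Sedentary library in that share. By sector, V1 genes summed to 773 ± 14.7, 1071 ± 40.5 and 1048 ± 53.5 TPM and V0 genes to 735 ± 20.4, 1283 ± 53.5 and 1313 ± 128 TPM in Sedentary, Mannan-only and AREx.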

How the data were processed

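The deposited values were whole read counts for each gene (total counts, per the file headers) in 3 groups of 4 libraries. Columns headed S were taken as Sedentary. The authors also deposited TPM and RPKM values per the file headers. TPM gave levels per gene length, and RPKM with the counts gave the gene length the authors used, which was whole within 0.05 base in 100% of 5375 genes checked. The log2 fold changes and the FDR p-values of the authors' own comparisons, also deposited, were read only as a second source. Reads were placed on GRCm39, per the submitters' processing notes. The aligner, the counting program, the use of strand and the authors' test are things not given in the sources used here.

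Genes were filtered with filterByExpr (minimum count 10), scaled by TMM and tested in 1 fit of all 12 libraries with edgeR 4.0.16 (robust quasi-likelihood F test, R 4.3.3), with Benjamini-Hochberg adjustment over all genes of a comparison. The SE is the log2 fold change divided by the square root of F. The 24 alternatives per comparison used DESeq2 1.42.0, limma 3.58.1, other scalings, filters and sets of libraries. Levels per length were taken from TPM in place of RPKM, which gives the same shares within a library. The fit was tested on simulated data. Every member at 1 CPM in 4 libraries was named, and of each other list up to 4 genes with the smallest p plus those called against its majority, of which the text gives a part. Members and lists were chosen with earlier results of these data known. Promoter windows are from RefSeq (GRCm38.p6), matched by symbol, and none of their coordinates was joined to GRCm39. Values rested on 11803882 to 17650156 counts per library.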

Additional observations from a re-analysis of the deposited data

Results flagged for a closer look

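In 6 of the 99 sets of 4 libraries looked at (33 genes in 3 groups), the highest or lowest library lay further from its nearest neighbour than 4 values of a normal sample usually do. Chance alone flags about 5% of such sets, so this count is near that share. Ctsg was at 13.7 CPM in AREx 3, beside 0.0908 to 1.31 CPM in the other AREx libraries. Ctsh was at 165 CPM in Mannan-only 3, beside 225 to 235 CPM in the others, and Atp6v1e1 was at 76.5 CPM in the same library, beside 88.2 to 90.1 CPM. Atp6v1h was at 57.3 CPM in Mannan-only 4, beside 53.0 to 53.2 CPM. In the same library Atp6v1c2 was at 0.336 CPM, beside 0.228 to 0.245 CPM. Ctse was at 6.30 CPM in Sedentary 2, beside 7.98 to 8.11 CPM.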

How the results depend on the processing

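Each comparison was run under 24 alternatives, and every count of members that rose or fell stayed within 1.5 times its reported value. Leaving out 1 library at a time gave 14 to 20 members risen and 4 fallen in Mannan-only against Sedentary, 17 to 23 risen and 4 to 5 fallen in AREx against Sedentary, and 0 in AREx against Mannan-only. Whether replicate numbers pair the libraries is not settled. Same-numbered libraries correlated at -0.068 to 0.169, with 3 of 12 pairs over 0.1. Libraries with other numbers correlated at -0.408 to 0.364, with 4 of 36 pairs over 0.1. Deviations from means of 4 libraries tie these correlations to each other, so they cannot exclude pairing. With the replicate block, 17 members rose and 4 fell against Sedentary in Mannan-only, and 19 and 4 in AREx. Of the 22 members called in Mannan-only against Sedentary, 18 were called under every alternative in which they were tested. The exceptions were Atp6v0b, Atp6v0a4, Atp6v1c1 and Atp6ap2. Of the 23 in AREx against Sedentary, 19 were in the same sense, and the exceptions were Atp6v1f, Atp6v0a4, Ctsl (adjusted p = 0.066 with a muscle score as covariate) and Atp6ap1 (highest adjusted p = 0.0573). Atp6v1c2 was not tested under the filter of 1 CPM in 4 libraries. Upper-quartile scaling put the median of all genes at -0.06 in Mannan-only against Sedentary, 0.03 in AREx against Sedentary and 0.05 in AREx against Mannan-only. Of the members called, or at an unadjusted p under 0.05, signs turned in AREx against Mannan-only only, and members near 0 that met neither were not followed. Without AREx 1 and 4, Ctsz was at -0.0013 and Atp6v1g1 at -0.0043, and with the gene-length trend removed Atp6v1g1 was at -0.053. The cause was not tested beyond these settings. With 0.5 or 2 CPM in place of 1 CPM in the rule, 33 or 31 members would be described. Members near 1 CPM rest on few reads.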
